A study of Mus musculus with 3 samples.

Results

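The genes of chemokines and chemokine receptors were followed in the developing mouse ureter. The members were the genes whose symbol is that of a CC or CXC chemokine or receptor (Ccl, Cxcl, Ccr or Cxcr with a number), together with Cx3cl1, Cx3cr1, Xcl1, Xcr1, Ackr1 to Ackr4 and Ccrl2. With probe sets that name exactly 1 gene, 54 members were measured among 18194 named genes, on 86 of 34958 probe sets. The samples form 1 group of 3, ureters of wild-type FVB/N embryos at embryonic day 15 (Theiler stage 23), called replicates 3, 8 and 9. Each was amplified in 2 rounds and hybridised to its own 1-colour Affymetrix Mouse Genome 430 2.0 array. The samples were not pooled, and whether they came from separate embryos or litters is not stated, so that the spread between them may be technical. The series has no second group and the labels name no batch, so that no test between conditions was possible and all values are descriptions.

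Chemokines are small secreted proteins that guide migrating cells along gradients, and they are classed by the spacing of their first cysteines (CC, CXC, CX3C and XC). Most act through receptors that couple to inhibitory G proteins, while atypical receptors bind chemokines without that coupling and take them up or move them across cells. Many family members are induced in inflammation, whereas others, of which Cxcl12 is the best known, act in the embryo, where Cxcl12 and its receptors guide blood vessel growth and progenitor cells in many organs.

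A gene's level was the signal, a linear intensity, of whichever of its probe sets had the highest average log2(signal + 1). A gene was called above background where that signal exceeded, on each of the 3 arrays, the 95th percentile of 51 reference genes that are known from other organs, among them retina, testis and lens. In replicates 3, 8 and 9 this background stood at 345, 436 and 417. Probe sets differ in brightness for reasons other than transcript amount, so levels of different genes are not ranked here, and a probe set below background does not show that a transcript was absent. In RNA of a whole tissue, fewer cells of a type and less RNA per cell cannot be told apart. The array medians were 198 to 273, and the ratio of 3′ to 5′ control probe sets was 15.1 to 18.9 for Gapdh. Of markers of the labelled tissue, 11 of 14 urothelial and epithelial genes and 9 of 11 genes of ureteric mesenchyme and smooth muscle were above background on all arrays, against 54.7% of all named genes. Markers of other tissues were above background as well, with 8 of 8 for hepatocytes, 7 of 7 for erythroid cells, 7 of 9 for skeletal muscle and 4 of 6 for neurons and glia, so that these counts do not single out the ureter. The uroplakin genes Upk1a and Upk2 were below it on every array and Upk3a was above it on 1.

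Most of the family was not above background. Of the 54 members, 10 were above background on all 3 arrays (18.5%), against 54.7% of all named genes. A further 2 were above it on 2 arrays, 4 on 1 array and 38 on none. The median member had a mean level equal to a signal of 135, and the median named gene 740. The members above background were the ligand genes Ccl6, Ccl9, Ccl27a, Ccl28, Cxcl1, Cxcl12, Cxcl13 and Cxcl16 and the atypical receptor genes Ackr1 and Ackr3. By role, these were 8 of 33 ligand genes, 0 of 16 genes of signalling receptors and 2 of 5 genes of atypical receptors, with Ccrl2 counted among the last. A gene with more probe sets has more chances to be above background, and 34 members had 1 probe set. Of these, 3 were above background (8.82%), against 37% of all genes with 1 probe set. Counted by probe set, 12 of 86 were above background (14.0%), against 42.9% of all probe sets with 1 symbol. The count moved with the background chosen. It was 13 of 54 with the 90th percentile of the reference genes (60.7% of all genes) and 3 of 54 with the 99th (41.6%), the 3 being Cxcl12, Ackr1 and Ackr3.

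**Figure D1:**
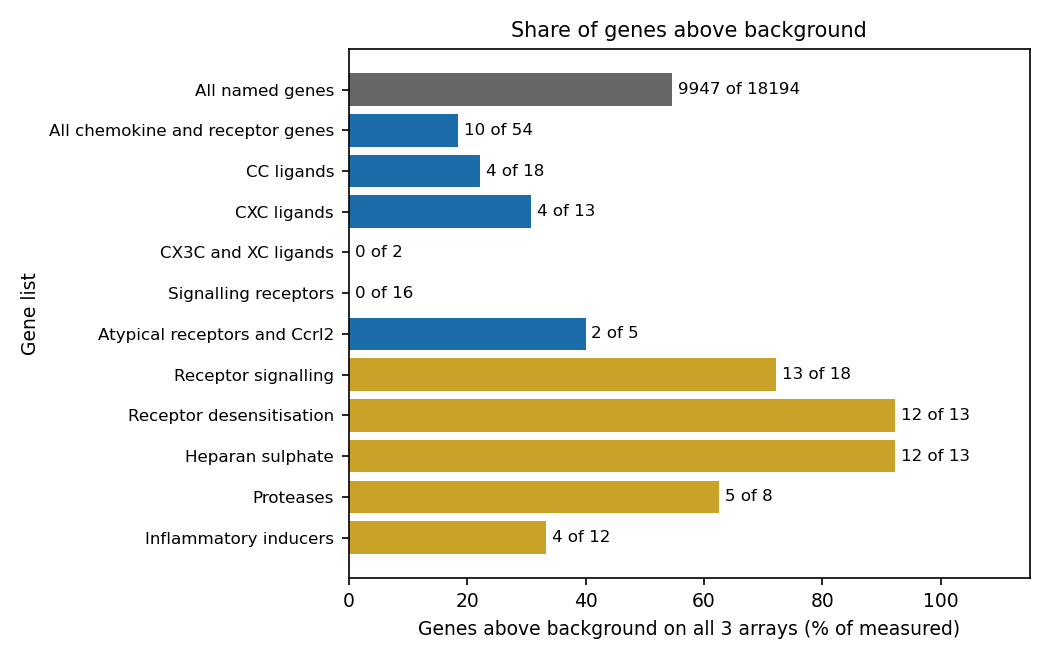
Share of measured genes above background on all 3 arrays (horizontal axis, percent) for all named genes (grey), the chemokine and receptor genes by class (blue) and lists of genes that act with them (yellow), with counts beside each bar. The chemokine and receptor genes stand at 10 of 54, and none of the 16 signalling receptor genes reached the call.

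Cxcl12 and Ackr3 were a ligand and receptor pair with both genes above background on all arrays. Cxcl12 encodes the ligand of the receptors Cxcr4 and Ackr3. Its signals, here and below in the order of replicates 3, 8 and 9, were 7352, 8254 and 11873. A second probe set gave 8010, 8233 and 9601. Both were lowest in replicate 3 and highest in replicate 9, while its last probe set stayed at 28.9 to 67.1, below background on every array. Ackr3, the gene of the atypical receptor that removes Cxcl12 from the surroundings of cells, had signals of 7103, 9560 and 6693 from its 1 probe set. That probe set ends in _s_at, a suffix for probe sets that can detect more than 1 transcript. In contrast to Cxcl12, Ackr3 was highest in replicate 8. Its log2 range between samples was 0.44, against 0.74 for the brightest Cxcl12 probe set. The second Cxcl12 probe set (8010 to 9601) spread less than Ackr3 did, so that which gene varied more depends on the probe set. Cxcr4, the gene of the signalling receptor for Cxcl12, had signals of 276, 153 and 98.5 from its 1 probe set, below background on every array. In none of the 10 alternatives was Cxcr4 above background on all arrays, although 3 of them put it above on 1 array. It was singled out with its values in view. Cxcl12 was above background in all 10 alternatives, and Ackr3 in the 9 that kept its probe set.

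The promoter windows of these 3 genes are shown because they are the members of 1 ligand and receptor axis of which the receptor Cxcr4 alone was not above background. The windows are from RefSeq, of the C57BL/6J reference (GRCm38.p6), and run from 250 bases before to 50 bases after the annotated start. The capitals mark CG dinucleotides.
Cxcl12, chr6:117168285-117168584, + strand: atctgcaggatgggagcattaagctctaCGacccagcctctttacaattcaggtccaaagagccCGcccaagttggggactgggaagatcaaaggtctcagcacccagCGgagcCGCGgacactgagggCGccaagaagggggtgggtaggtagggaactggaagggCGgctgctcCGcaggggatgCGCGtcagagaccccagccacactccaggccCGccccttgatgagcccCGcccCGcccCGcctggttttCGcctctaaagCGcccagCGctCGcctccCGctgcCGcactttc
Ackr3, chr1:90203730-90204029, + strand: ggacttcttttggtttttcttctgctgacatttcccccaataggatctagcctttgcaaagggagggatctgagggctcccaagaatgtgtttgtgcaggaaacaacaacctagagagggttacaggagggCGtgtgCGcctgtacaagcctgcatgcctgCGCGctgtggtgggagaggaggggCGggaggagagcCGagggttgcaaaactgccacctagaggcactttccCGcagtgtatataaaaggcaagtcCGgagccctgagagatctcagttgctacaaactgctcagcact
Cxcr4, chr1:128592250-128592549, - strand: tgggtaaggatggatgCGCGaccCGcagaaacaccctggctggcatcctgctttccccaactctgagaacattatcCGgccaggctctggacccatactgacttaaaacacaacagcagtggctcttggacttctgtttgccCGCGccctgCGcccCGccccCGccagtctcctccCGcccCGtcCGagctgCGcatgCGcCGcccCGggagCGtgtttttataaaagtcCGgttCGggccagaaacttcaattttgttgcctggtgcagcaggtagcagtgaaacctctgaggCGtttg
The Cxcl12 and Cxcr4 windows each held 20 CG dinucleotides and that of Ackr3 held 8. The median over 27025 genes with such a window was 8, and over the 41 members with one it was 4. The median was 4 both for the 9 members above background with a window and for the other 32, and the ranges overlapped (2 to 20 and 1 to 52).

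Among the other CXC ligand genes, Cxcl1 had signals of 842, 893 and 705. Cxcl1 encodes an attractant of neutrophils that acts through Cxcr2. A further probe set was above background on all arrays (827, 978 and 528) and the last on 2 arrays (411, 828 and 247). All 3 probe sets were highest in replicate 8 and lowest in replicate 9. The brighter pair end in _x_at and _s_at, and without such probe sets Cxcl1 was above background on 2 arrays only. Cxcr2, its receptor gene, had signals of 8.26 to 22.7. The related attractant genes Cxcl2, Cxcl3 and Cxcl5 had signals no higher than 120, 16.6 and 8.53.

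Cxcl1, Cxcl2 and Cxcl3 lie close together in the genome, and their promoter windows are shown because they share a sequence while Cxcl1 alone was above background. The capitals mark matches to the motif GGGA, any base, TTTCC, a form of the binding sequence of the inflammatory transcription factor NF-kappaB, searched on both strands.
Cxcl1, chr5:90890995-90891294, + strand: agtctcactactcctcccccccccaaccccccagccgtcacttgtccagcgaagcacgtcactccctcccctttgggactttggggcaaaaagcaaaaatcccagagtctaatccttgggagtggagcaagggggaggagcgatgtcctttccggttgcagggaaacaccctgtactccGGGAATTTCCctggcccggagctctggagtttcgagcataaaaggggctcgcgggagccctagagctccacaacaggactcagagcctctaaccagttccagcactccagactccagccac
Cxcl2, chr5:90903649-90903948, + strand: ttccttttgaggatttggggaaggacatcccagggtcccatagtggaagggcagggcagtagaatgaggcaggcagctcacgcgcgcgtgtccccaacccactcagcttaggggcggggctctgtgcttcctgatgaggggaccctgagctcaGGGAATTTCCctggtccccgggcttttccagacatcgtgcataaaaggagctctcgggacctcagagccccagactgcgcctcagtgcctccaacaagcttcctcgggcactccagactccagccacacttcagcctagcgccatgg
Cxcl3, chr5:90785851-90786150, + strand: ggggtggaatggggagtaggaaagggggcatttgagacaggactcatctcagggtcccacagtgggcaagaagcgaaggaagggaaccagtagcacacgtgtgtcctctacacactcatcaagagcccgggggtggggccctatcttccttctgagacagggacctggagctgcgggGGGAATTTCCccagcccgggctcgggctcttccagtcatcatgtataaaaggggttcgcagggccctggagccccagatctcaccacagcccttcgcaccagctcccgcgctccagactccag
Each window held 1 match with the same letters, GGGAATTTCC. The last base of the match lay 62 bases before the annotated start in Cxcl1, 88 in Cxcl2 and 64 in Cxcl3. Of all 27025 genes with a window, 0.466% held the motif. Among the members with a window, 4 of 41 held it, the other being Ccr3, whose signals were 3.84 to 5.06. Of the members with the motif, 1 of 4 was above background, and of those without it 8 of 37. A match is a description of these letters and not a site shown to be bound.

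Cxcl13, the gene of an attractant of B cells that acts through Cxcr5, had signals of 1035, 873 and 2451. It was highest in replicate 9 and similar in the other samples. A second probe set had the same pattern at 442, 361 and 1267, the value of replicate 8 being below background. Cxcr5 was below background on every array (25.8 to 65.0). Cxcl16 encodes a chemokine made as a membrane protein, which binds Cxcr6. Its signals were 493, 539 and 739, also highest in replicate 9. A second Cxcl16 probe set differed, with 482, 403 and 449, highest in replicate 3 and below background in replicate 8. Cxcr6 had signals of 3.77 to 16.7. Cxcl14, the gene of a chemokine of epithelia and fibroblasts, was above background in replicate 9 alone, with signals of 334, 128 and 733. Its second probe set was likewise highest there (203, 205 and 525). The remaining 8 CXC ligand genes were below background on every array, with signals of 4.97 to 231. They were Cxcl2, Cxcl3, Cxcl5, Cxcl9, Cxcl10, Cxcl11, Cxcl15 and Cxcl17. Cxcl9, Cxcl10 and Cxcl11, which are induced by interferon and act on T cells through Cxcr3, were thus all at background, as was Cxcr3 (125 to 129).

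Of 18 CC ligand genes, 4 were above background. Ccl9 and Ccl6 encode related rodent chemokines that attract myeloid cells through Ccr1. Ccl9 had signals of 1061, 618 and 716. Ccl6 had 666, 479 and 492. Both were highest in replicate 3. They were lowest in replicate 8, or in replicate 9 after quantile normalization. Each had a second probe set below background, and when probe sets of a gene were averaged neither was above background on all arrays. The receptor gene Ccr1 was above background in replicate 3 alone (397, 180 and 213), where both ligand genes were highest. Background was lowest on that array (345). The second Ccr1 probe set was also highest in replicate 3 but below background on every array (206, 28.7 and 72.7).

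Ccl27a and Ccl28 encode epithelial chemokines that share the receptor Ccr10. Ccl27a had signals of 907, 831 and 1224. It has close copies in the mouse genome, so that its signal cannot be given to it alone. Ccl28 had signals of 396, 581 and 438, close to background, and 2 further probe sets were below it. Its call ended in 3 of 10 alternatives. Ccr10 was below background on every array (25.1 to 123). Ccl25, known as a thymic and intestinal chemokine, was above background in replicate 3 alone (378, 105 and 259). Its second probe set was below background on every array and highest in replicate 9 (156, 15.8 and 173). The other 13 CC ligand genes, which were Ccl1, Ccl2, Ccl3, Ccl4, Ccl5, Ccl7, Ccl8, Ccl11, Ccl12, Ccl17, Ccl20, Ccl22 and Ccl24, had signals of 8.84 to 335. Ccl2, the gene of the main monocyte attractant, had signals of 134, 192 and 188 and was singled out with its values in view. The membrane-bound chemokine gene Cx3cl1 (131 to 184) and the T cell chemokine gene Xcl1 (41.4 to 99.3) were also below background throughout.

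**Figure D2:**
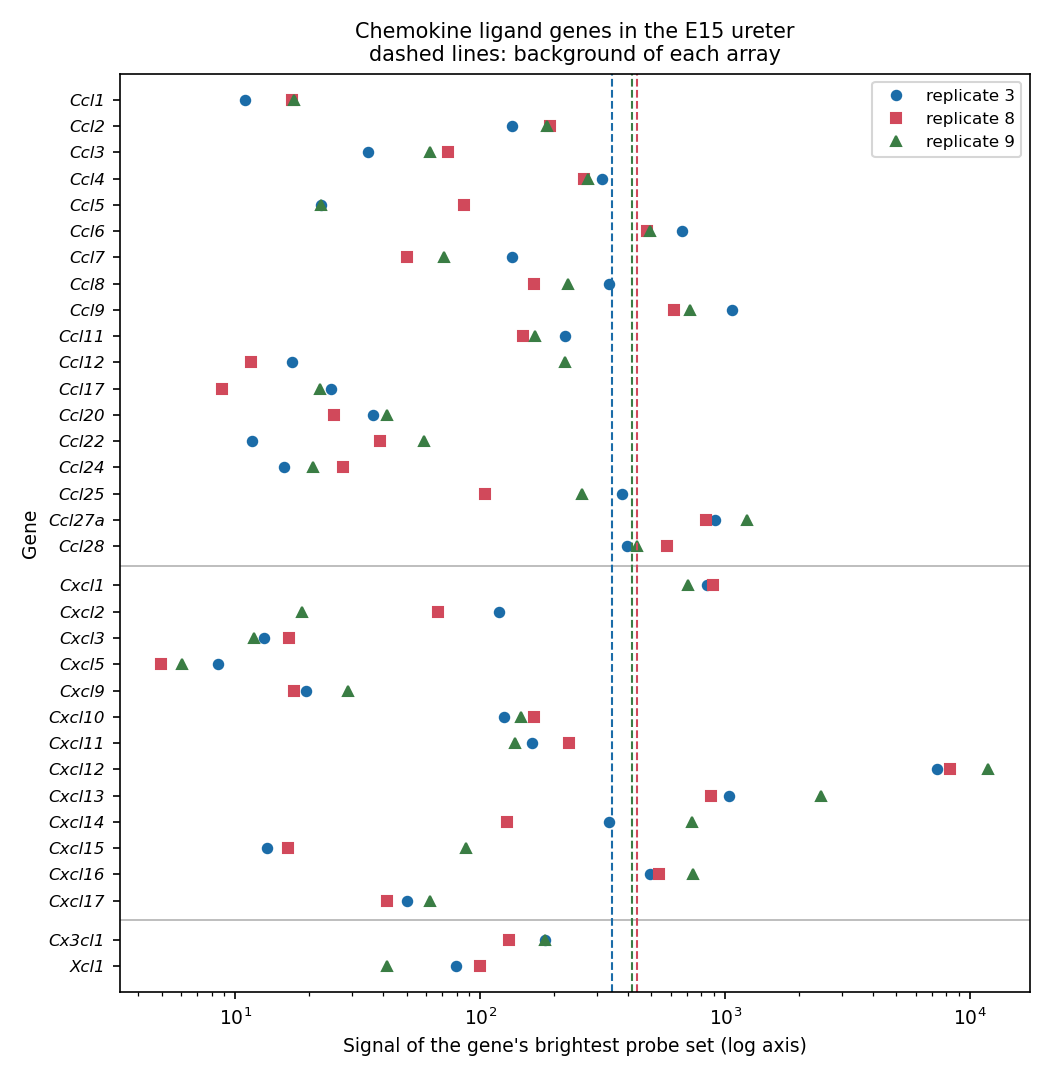
Signal of the brightest probe set of each of 33 ligand genes (horizontal log axis) in replicates 3 (circles), 8 (squares) and 9 (triangles), with the background of each array as a dashed line in the same colour and grey lines between CC, CXC and other ligands. The 3 points of 8 genes lie above their lines, and Cxcl12 is at 7352 to 11873.

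No signalling receptor gene was above background on all 3 arrays. The nearest to the call was Cx3cr1, the gene of the fractalkine receptor of macrophages and microglia, with signals of 1269, 281 and 1523. It was above background in replicates 3 and 9 and below it in replicate 8. Its second probe set was below background on all arrays (5.91, 8.84 and 78.3). Without replicate 8, Cx3cr1 was above background on both remaining arrays and the count of signalling receptors was 1 of 16. Ccr2, the monocyte receptor gene, had signals of 293, 251 and 265, narrowly spread and under background on each array, and was singled out with its values in view. The 14 receptor genes below background on every array had signals of 3.77 to 293. Besides Cxcr4 and Ccr2 they were Ccr3, Ccr4, Ccr6 to Ccr10, Cxcr2, Cxcr3, Cxcr5, Cxcr6 and Xcr1.

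Atypical receptors were above background for 2 of 5 genes. Ackr1 encodes the receptor of erythrocytes and venules that binds many inflammatory chemokines. Its signals were 2911, 973 and 1519, above background in all 10 alternatives. Ccrl2, which encodes a receptor that binds the attractant chemerin without signalling, was above background in replicates 3 and 9 (798, 327 and 543). Ackr4, the gene of a scavenger of Ccl19, Ccl21 and Ccl25, was above background in replicate 3 alone (509, 296 and 389). So was its second probe set (440.5, 280 and 326), while its last was below background on every array (28.7, 16.2 and 6.47). Ackr2, the scavenger gene for inflammatory CC chemokines, was below it throughout (121, 132 and 206). With the 90th percentile of the reference genes, Ackr4 and Ccrl2 were also above background on all arrays, giving 4 of 5.

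**Figure D3:**
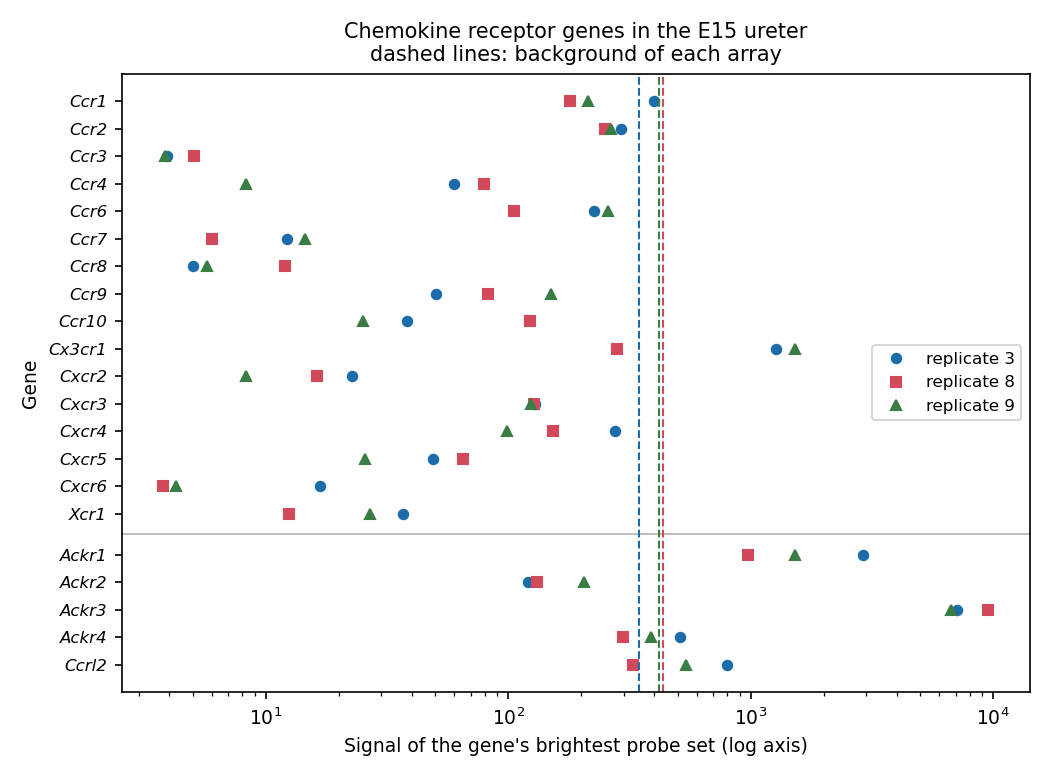
Signal of the brightest probe set of each of 21 receptor genes (horizontal log axis) in the 3 samples, with signalling receptors above the grey line and atypical receptors and Ccrl2 below it. Dashed lines give the background of each array. Ackr1 and Ackr3 lie above all 3 lines, and Cx3cr1 lies above them in replicates 3 and 9 but at 281 in replicate 8.

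Ligands and receptors were also compared as pairs. Of 46 listed pairs, 38 had both genes measured. In 2 of the 38, both genes were above background on all arrays: Cxcl12 with Ackr3, and Cxcl1 with Ackr1. The receptor in each had to be atypical, since no signalling receptor gene was above background on all arrays. Pair counts follow from the calls of single genes, which 54.7% of all named genes had. In 9 pairs the ligand alone was above background, in 3 the receptor alone and in 24 neither. The pair of Cxcl1 and Ackr1 was lost with the 99th percentile of the reference genes, and no pair remained when _x_at and _s_at probe sets were dropped, since the Ackr3 probe set is of that kind and Cxcl1 was then above background on 2 arrays.

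Chemokine genes lie in groups along the chromosomes. In the order of the reference genes (GRCm38.p6), 30 members lay in 7 groups of neighbours with at most 2 other protein-coding genes between them. Of these 30, 3 were above background, and of the other 24, 7 were, against 54.7% of all named genes. The number of probe sets per gene was not taken into account in these counts. In the group Ccl2, Ccl7, Ccl11, Ccl12, Ccl8 and Ccl1, 0 of 6 were above background. In the group Ccl5, Ccl9, Ccl6, Ccl3 and Ccl4, the adjacent genes Ccl9 and Ccl6 were. Cxcl1 was the 1 member of 5 above background in its group with Cxcl5, Cxcl3, Cxcl15 and Cxcl2. Chemokine genes whose names the member rule does not take were not counted in any group. Among those are Pf4 and Ppbp, both above background on all 3 arrays. The groups of Cxcl9, Cxcl10 and Cxcl11 and of Ccl22, Cx3cl1 and Ccl17 had none. Neither had the receptor groups, 6 genes from Ccr9 to Ccr2 and the pair of Cx3cr1 and Ccr8.

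The spread between samples was described on the log2 scale after each array's median deviation was taken off. Of the 10 members above background, 2 had a range of at least 1, Ackr1 (1.60) and Cxcl13 (1.56). Among all 9947 genes above background the share was 14.1%. The count was 1 when replicate 3, replicate 8 or replicate 9 was left out. The median range was 0.63 for the 10 members and 0.53 for all genes above background. The smallest was that of Cxcl1 (0.27) from the probe set used, whereas its other probe sets, given above, spread more widely. Of the 10 members, 5 were lowest in replicate 8, against 32.8% of all genes above background. Ccl6 and Ccl9 among them were lowest in replicate 9 after quantile normalization. The samples also differed in markers of blood and liver cells. Summed macrophage markers (8 of 12 above background) were 25772, 14599 and 31812. Summed neutrophil markers (4 of 7) were 16533, 7029 and 18324. Erythroid markers (7 of 7) summed to 168435, 81525 and 124649, and hepatocyte markers (8 of 8) to 216750, 116382 and 165337. These lists were all lowest in replicate 8, as were Ackr1 and Cxcl13. Ackr1 and the erythroid and hepatocyte sums were highest in replicate 3, Cxcl13 and the macrophage and neutrophil sums in replicate 9. The largest values in those replicate 9 sums were Csf1r (17559) and S100a8 (9973). By the median deviation over a list's genes, macrophage markers were instead highest in replicate 3 (0.37, against 0.25 in replicate 9). The same held for neutrophil markers (0.41 against 0.22). The values of Cxcl13 in replicates 3 and 8 were similar. Cx3cr1 and Ccrl2 were below background in replicate 8 alone, so that the size of their difference was not measured. Endothelial markers (8 of 11) ran otherwise, at 17238, 16579 and 12753. Lymphatic endothelial markers (5 of 5) summed to 22998, 10225 and 18396. The part of these cell types in the spread of the chemokine genes was not tested.

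**Figure D4:**
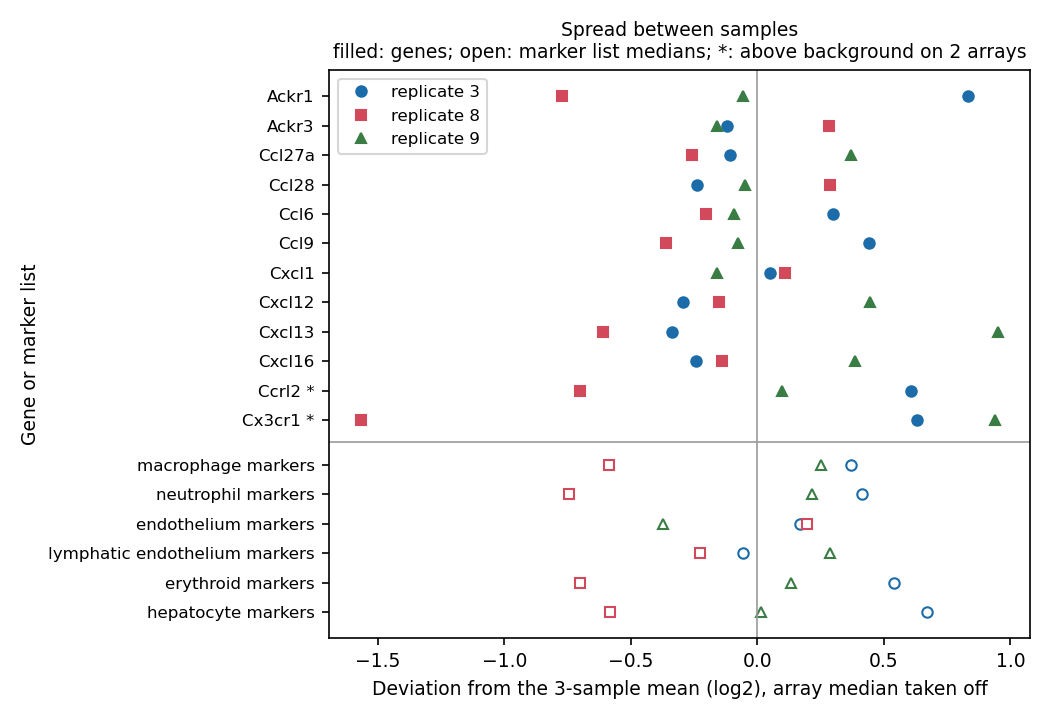
Deviation of each sample from the 3-sample mean (horizontal axis, log2, array median taken off) for the 10 chemokine and receptor genes above background and the 2 above it on 2 arrays (filled), and the median deviation of 6 marker lists (open). Ackr1 and Cxcl13 have the widest spread of the 10, and the macrophage, neutrophil, erythroid and hepatocyte lists are lowest in replicate 8. The replicate 8 points of Cx3cr1 and Ccrl2 are below background and have no measured size.

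The lists of leukocytes that carry chemokine receptors differed. Of the 12 macrophage genes, Aif1 and Cd14 were below background on every array, while Csf1r, the receptor gene that defines the lineage, had signals of 8111, 5183 and 17559. Of 11 lymphocyte genes, 0 were above background on all arrays, the T cell receptor genes Cd3e, Cd3g and Cd3d lay at 8.61 to 51.7, and the list summed to 1043, 576 and 1164. Of 7 mast cell and basophil genes, 2 were above background, Cpa3 and Hdc, with sums of 6028, 1759 and 2264. Of 5 dendritic cell genes, Zbtb46 alone was above background, with sums of 2884, 2865 and 2111. Of 6 megakaryocyte and platelet genes Itga2b alone was, with sums of 1836, 1452 and 2647.

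Lists of genes that act with the family were chosen for function and not for signal. Their shares above background ranged from 33.3% for inflammatory inducers and their regulators to 92.3% for receptor desensitisation and for heparan sulphate. Over all named genes the share was 54.7%, and over those with several probe sets 72.7%, so that the shares of 62.5% and 72.2% in the other lists lay near these. Chemokine and chemotactic genes with other names were above background for 5 of 8. Pf4 and Ppbp, which encode CXC chemokines stored in platelets, had signals of 3286, 3146 and 5768 and of 1951, 1206 and 5198, both highest in replicate 9. The summed megakaryocyte list was highest there too, although of its 6 genes Itga2b alone was above background on all arrays. Mif, the gene of a cytokine that can also bind Cxcr4, had a mean signal of 20163 ± 5499 (SD, n = 3, as for the values below), and Cklf 7416 ± 2124. Rarres2, which encodes chemerin, the ligand bound by Ccrl2, had 1332 ± 364. Cd74, the gene of the Mif receptor, was above background on 2 arrays (385 ± 81), the chemerin receptor gene Cmklr1 on 1 (318 ± 67), and Ccr1l1 on none (69.7 ± 34.2).

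Genes of receptor signalling were above background for 13 of 18, including Cdc42 (29306 ± 1012) and Rac1 (23534 ± 2604), which act on the cytoskeleton of migrating cells, and the G protein genes Gnai3 (23920 ± 3908) and Gnb1 (19637 ± 4769). The 5 that were below it on every array were Plcb2, Pik3r5, Dock2, Ptk2b and Vav1. Rac2 (706 ± 159) and Pik3cg (477 ± 106), which like Vav1 and Dock2 are known from leukocytes, were above it on all arrays and are named here with their values in view. Receptor desensitisation and trafficking genes were above background for 12 of 13. They included Rab7 (24326 ± 1603), Vps4b (23444 ± 3215), Rab5a (10777 ± 3249) and Rgs2 (8752 ± 1516), with Rgs1 below on every array (43.0 ± 32.3). The genes of beta-arrestins, which Ackr3 uses in place of G proteins, were above background too, Arrb1 at 2598 ± 532 and Arrb2 at 1540 ± 51, and were singled out with their values in view.

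Heparan sulphate chains hold chemokines on cell surfaces, and 12 of 13 genes of their synthesis and core proteins were above background. Hs2st1 (9176 ± 228), Glce (6018 ± 1948), the syndecan gene Sdc1 (5998 ± 1333) and Extl3 (4614 ± 335) were among them, while Hs3st1 was above background on 1 array (385 ± 97). Of 8 genes of proteases that shed or trim chemokines, 5 were above background, including Mmp2 (25428 ± 7612), Adam10 (14726 ± 3227), Adam17 (3268 ± 247) and Cpm (1582 ± 407). Adam10 and Adam17 encode the proteases that release Cxcl16 and Cx3cl1 from the membrane. Dpp4, whose product inactivates Cxcl12, was above background on 2 arrays (388 ± 119), as was Ctsg (546 ± 292), and Mmp9 on none (348 ± 80). Inflammatory inducers and their regulators were above background for 4 of 12. Those 4 act inside the cell: Nfkbia (21499 ± 1333), Rela (6029 ± 423), Tnfaip3 (2149 ± 146) and Irf1 (1947 ± 881). Of these, Nfkbia and Tnfaip3 encode inhibitors of NF-kappaB and not inducers. The 8 cytokine genes Il1a, Il1b, Tnf, Il6, Ifng, Il17a, Lta and Ltb were below background on every array, with signals of 1.48 to 252.

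**Figure D5:**
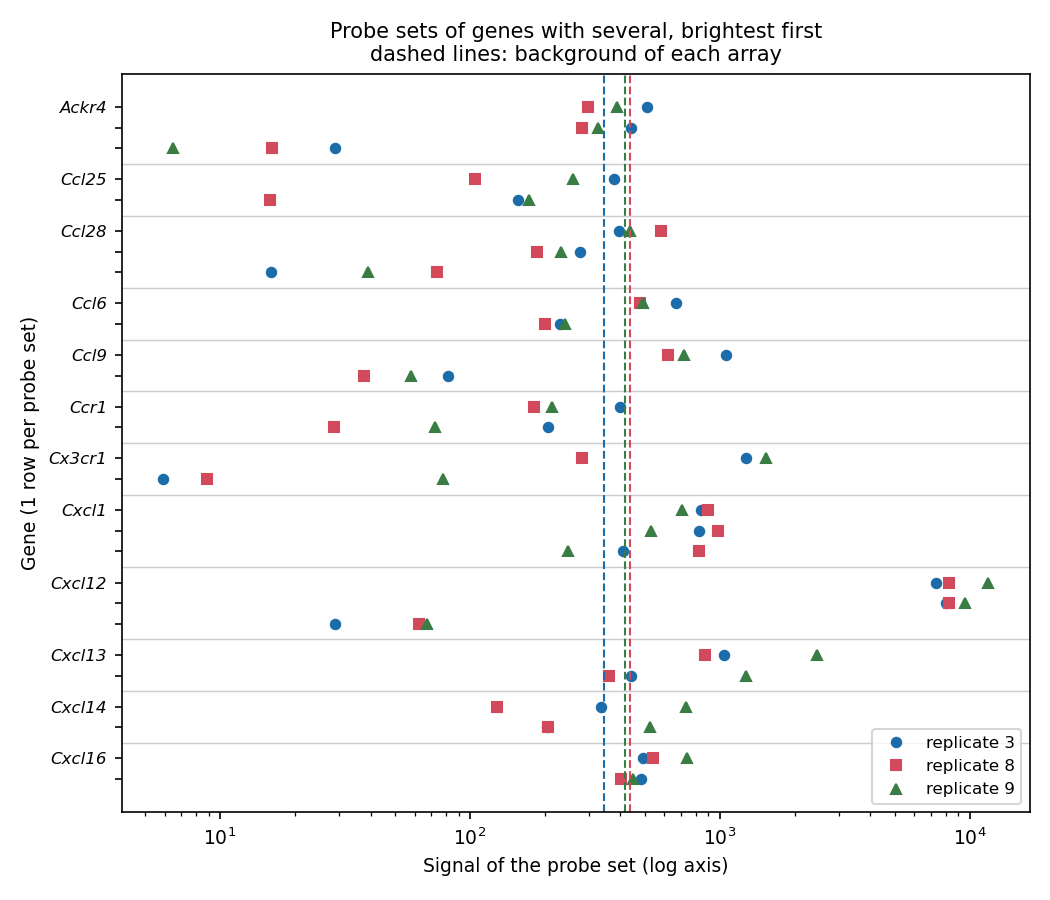
Signal of every probe set (1 row each, horizontal log axis) of members with several probe sets and at least 1 array above background, with array backgrounds dashed. A pair of Cxcl12 rows lie at 7352 to 11873 and the last at 28.9 to 67.1, and the second rows of Ccl6, Ccl9 and Cx3cr1 lie below background.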

How the data were processed

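The data were 3 single-channel arrays of 1 group. The values are linear intensities, 1 per probe set, that the authors deposited already scaled: the mean trimmed by 2% at each end was 1500.01 on every array. Per the submitters' processing notes, the software was GCOS, whose settings they do not state. After such scaling a level has meaning only against the other probe sets on that array. Gene symbols came from GEO's platform annotation. Of 45101, 34958 had 1 symbol and were used, 932 had several and 9211 are not named here. All 54 members matched the GRCm38.p6 gene table by Entrez ID.

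Signals were analysed as log2(signal + 1) in Python 3.11.15 with pandas 2.3.3 and NumPy 2.4.6. The reference list held 56 genes, 51 measured, of which 2, Cela1 and Tff1, were above background on all arrays. The calls and ranges were tried on simulated data, in which present genes lay far above the background and absent genes well below it. That trial does not bear on calls near the background. Every member is accounted for, those above background on at least 1 array with each sample's signal. Of the lists of genes that act with the family, up to 4 genes with the highest mean and those not above background are named. Of the cell type marker lists, only some of the genes not above background are named. Members, lists, pairs and alternatives were chosen with earlier results of these data known. Promoter motifs and gene neighbours were chosen with the values in view. Alternatives were quantile normalization, averaging the probe sets of a gene, dropping _x_at and _s_at probe sets, percentiles of 90 and 99, 2 arrays in place of 3, leaving out each replicate, and, for the range, pseudocounts of 16 and 64, no filter and no centring.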

Additional observations from a re-analysis of the deposited data

Results flagged for a closer look

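Some probe sets name a family member together with other genes and were therefore left out of the gene levels, yet gave signal above background. A probe set that names 5 genes, among them Ccl27a and Ccl27b, had a mean signal of 1016, with 809, 916 and 1323 in replicates 3, 8 and 9. Another that names the same genes had a mean of 625 (601, 549 and 726). Both were above background on all 3 arrays and, like the Ccl27a probe set used, highest in replicate 9. A probe set that names 9 genes, among them Ccl21a, Ccl21b, Ccl21c and Ccl21d, which attract Ccr7-bearing cells to lymphatic vessels, had a mean of 297, with signals of 364, 56.0 and 472, above background in replicates 3 and 9.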

How the results depend on the processing

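Of the 10 calls of members, 3 (Cxcl12, Ackr1 and Ackr3) held under each of the 10 alternatives that measured them. Quantile normalization left 10 of 54 members above background. Averaging the probe sets of a gene left 8, of them 5 ligands, with 4 ranges of at least 1. After _x_at and _s_at probe sets were dropped, 6 of 52 members remained above background (5 ligands, 1 atypical receptor) and 0 pairs. The 90th percentile gave 13 members, with 1 signalling receptor, 4 atypical receptors and 4 ranges of at least 1. The 99th gave 3 members, 1 ligand, 1 pair and 1 range of at least 1. Calls on at least 2 arrays gave 12 members, 1 signalling receptor and 4 ranges of at least 1. Leaving out each replicate gave 10 to 12 members, 0 to 1 signalling receptors (1 without replicate 8, Cx3cr1), and 1 range of at least 1 in each case, fewer samples giving smaller ranges. Without a filter 28 of 54 members had such a range, against 2 with pseudocounts of 16 or 64 or without centring. An alternative chosen after seeing the data dropped Tff1 and the exocrine pancreas genes, which include the 4 brightest reference genes. It gave 15 of 54 members (62.5% of all genes), 2 signalling receptors (Cx3cr1 and Ccr2), 4 atypical receptors, 8 of 8 protease genes and 4 ranges of at least 1. In each of these alternatives the share of members was below that of all genes. Another reference list was planned as an alternative and was not run, since none was at hand. Calls near background, such as those of Ccl28, Ccl6 and Cxcl16, are limited by the signal over background and by the number of arrays. No paired analysis was possible because the series holds 1 group.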
